A study of Mus musculus with 8 samples.

Results

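Ribosomal protein genes encode the proteins of the cytoplasmic ribosome and are transcribed in nearly every cell. The set examined here comprised the 81 protein-coding mouse genes whose symbol is Rpl or Rps with a number and at most 1 letter, or Rplp0, Rplp1, Rplp2 or Rpsa, with the S6 kinase genes left out, of 21887 protein-coding genes in the GRCm38.p6 table. By role, 47 were large-subunit genes, 31 were small-subunit genes and 3 encoded the P stalk. Merging overlapping peaks of 8 libraries gave 87260 consensus regions, of which 94 lay within 1 kb of either end of one of these genes and form the member regions. The choice used gene names and positions only, and no peak width. The question put to them was how the width of called peaks differed with lipopolysaccharide (LPS) at genes chosen as constant ones, since peaks were narrower with LPS over the lists as a whole.

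The data are ATAC-seq, in which a transposase inserts adapters into open chromatin, on bone marrow-derived macrophages. Bone marrow cells of wild-type (WT) or NFAT5-deficient (Nfat5 KO, here KO) mice were grown for 7 days with 25% medium conditioned by L929 fibroblasts, a source of the growth factor M-CSF. The macrophages then received 0.3 ng/ml Escherichia coli LPS for 2 h or no treatment. The 4 groups, WT untreated, WT with LPS, KO untreated and KO with LPS, had 2 libraries each, called biological replicates by the study's design text. The labels used here state neither strain and age nor the promoter or cell type in which Nfat5 was deleted, and the KO label was not checked, since a list of peak positions does not show the deletion. Each library came as a list of peak positions with no height, score or read count, so the depth behind a peak is unknown. A peak width is the length of sequence called as open and is no measure of transcription. The LPS lists held 54027 to 57691 peaks and the untreated lists 56346 to 60117. The cells' label was checked on markers: 10 of 10 macrophage marker genes had a region near a gene end called in every library, against 0 of 5 T cell, 1 of 4 B cell (Ms4a1), 0 of 4 neutrophil, 2 of 4 erythroid and 0 of 4 fibroblast marker genes.

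Ribosomal proteins are made in fixed proportion to each other and to ribosomal RNA, which takes up a large share of a growing cell's transcription. Many of their mRNAs start at a C within a run of pyrimidines, the 5′ terminal oligopyrimidine (5′ TOP) motif, through which their translation follows mTOR signalling. Their promoters are compact, many lack a TATA box, and ETS-family factors such as GABP and the factor YY1 are known to bind them. In macrophages LPS acts through the receptor TLR4 and induces inflammatory genes within minutes to hours.

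The start sites show what the peaks cover. The RefSeq promoter table (GRCm38.p6, 250 bases before to 50 after 1 start per gene) had an entry for 61 of the 81 genes. Among the 20 without one were Rpl17, Rpl21, Rpl23a, Rpl29, Rpl3, Rpl30, Rpl32, Rpl36, Rpl7, Rpl8, Rplp1, Rps14, Rps20, Rps27a and Rps29. Shown first are 7 starts whose regions had the lowest or highest width differences, LPS minus untreated, or belong to genes described below. Each runs from 60 bases before the annotated start through the first 20 transcribed bases, 5′ to 3′ on the gene's strand. Capitals mark the longest run of C and T that touches the 10 bases on either side of the start. All 7 hold a run of at least 8 bases, where the median over the 61 promoters was 7. Starts with shorter runs that met the same rule, such as those of Rpl11 (3 bases) and Rpl24 (2), are left out.
Rps6 (chr4:86857348-86857427, - strand): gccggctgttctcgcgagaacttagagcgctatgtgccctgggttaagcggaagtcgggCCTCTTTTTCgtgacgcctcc
Rps9 (chr7:3703981-3704060, + strand): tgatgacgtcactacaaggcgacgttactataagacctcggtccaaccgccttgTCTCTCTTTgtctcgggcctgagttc
Rps18 (chr17:33955646-33955725, - strand): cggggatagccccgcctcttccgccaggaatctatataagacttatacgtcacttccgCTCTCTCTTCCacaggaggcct
Rpl4 (chr9:64173327-64173406, + strand): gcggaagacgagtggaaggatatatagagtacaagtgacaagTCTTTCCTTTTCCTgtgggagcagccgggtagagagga
Rpl13a (chr7:45128726-45128805, - strand): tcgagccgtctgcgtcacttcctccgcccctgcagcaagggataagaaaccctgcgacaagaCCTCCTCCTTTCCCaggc
Rpl14 (chr9:120571457-120571536, + strand): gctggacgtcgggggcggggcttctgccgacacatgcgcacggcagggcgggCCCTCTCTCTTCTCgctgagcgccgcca
Rpl31 (chr1:39367791-39367870, + strand): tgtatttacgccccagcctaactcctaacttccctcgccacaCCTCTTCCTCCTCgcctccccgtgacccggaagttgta

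A run of at least 8 pyrimidines touching the 10 bases on either side of the annotated start was found in 27 of the 61 promoters (44.3%), against 13.3% of all 17492 promoters in the table. The first transcribed base was a C in 20 of 61 (32.8%), against 13.7% of other genes. The ETS core CCGGAAG, searched on both strands over the 300 bases, was present in 24 (39.3%) against 11.9% of all promoters, and the palindrome CTCGCGAG in 6 (9.84%; Rpl12, Rpl26, Rpl27a, Rps6, Rps19 and Rps28) against 1.3%. AAGATGGC, a YY1 core that holds a start codon, was present in 4 (6.56% against 3.22%), and the GC box GGGCGG in 35 (57.4% against 46.3%). TATAAA was present in 6 (9.84% against 13.3%) and CCAAT in 19 (31.1% against 39.0%). GGANTTTCC, a form of the NF-kB motif in which N is any base, was present in 3 (4.92%; Rps2, Rps12 and Rpsa) against 1.25%, and TGGAAA, the core bound by NFAT proteins, in 8 (13.1% against 19.6%). These are matches of letters in a window and not observed binding. Of the palindromes, found once or more in each promoter, those of Rps19, whose width varied little over the 8 libraries, and Rpl26, whose width with LPS was lower in KO than in WT in both libraries, are shown in capitals.
Rps19 (chr7:24884532-24884611, + strand): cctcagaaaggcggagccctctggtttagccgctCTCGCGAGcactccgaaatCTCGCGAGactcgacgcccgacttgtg
Rpl26 (chr11:68901506-68901585, + strand): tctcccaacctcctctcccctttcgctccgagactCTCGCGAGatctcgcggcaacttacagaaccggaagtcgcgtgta

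Most of these genes had an open region at an end in every library. A region lay within 1 kb of an end for 76 of the 81 genes, and 73 genes had one called in all 8 libraries. Of the 94 member regions, 82 (87.2%) were called in all 8 libraries, against 70.8% of the 13966 regions near the end of any protein-coding gene and 41.3% of all consensus regions. Within a library, 83 to 91 of the 94 were called (88.3% to 96.8%), against 60.4% to 67.7% of all consensus regions. In WT, 91 and 91 were called untreated (67.7% and 66.7% of all regions) and 87 and 87 with LPS (64.4% and 62.1%). In KO, 86 and 87 were called untreated (63.6% and 67.2%) and 87 and 83 with LPS (61.6% and 60.4%). Of the 94, 25 also lay within 1 kb of the end of another protein-coding gene.

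Of the 5 genes with no region, Rpl10l and Rpl39l are copies of Rpl10 and Rpl39 used mainly in testis. The nearest region lay 246789 bases from an end of Rpl10l, 17774 from Rpl39l and 24515 from Rpl32l. The other 2 fell just outside the distance limit: the nearest region was 1046 bases from an end of Rpl17 and 1382 bases from Rps2, and both regions were called in all 8 libraries. The Rps2 region (chromosome 17, 24719627 to 24720545, 648 to 842 bases wide) holds the gene's RefSeq start, because the gene's full extent in the table reaches farther than that transcript. Just inside the limit were regions of Rpl22 (965 bases), Rps27l (952) and Rpl7 (930). Rpl3l, the form of Rpl3 found in striated muscle, had a region called in all 8 libraries 53 bases from its end, which also lay at the end of Msrb1.

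The 12 member regions that some library lacked were mostly narrow second regions of a gene. Regions over an end of 3 large-subunit genes, Rpl23, Rpl6 and Rpl8, were missing from the second KO LPS library alone, the library with the shortest list. The Rpl23 region measured 808 and 782 bases in WT untreated, 586 and 713 in WT with LPS, 886 and 807 in KO untreated, and 817 in the other KO LPS library. A region 609 bases from an end of Rpl36 was missing in the first KO LPS library. At Rps19 a region 432 bases past the gene's 3′ end was called in both WT untreated libraries (360 and 167 bases) and the first WT LPS library (476 bases) and in no KO library. This made it the 1 member region called in WT only in untreated cells, where 2.23% of all consensus regions were. A region 724 bases from the start of Rps15a was called in both WT untreated libraries (180 and 168 bases) and neither WT LPS library, and in the second KO untreated library (175 bases). The rest included regions at Rps23 (337 bases from a gene end, 3 libraries) and Rps14 (498, 2 libraries). Those at Rpl23 (146), Rps10 (726), Rps3 (692) and Rps29 were called in 1 library each.

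No member region was gained with LPS, meaning called in both LPS and neither untreated library of a genotype: 0 of 94 in WT, where 3.96% of all consensus regions were, and 0 in KO, where 2.56% were. The Rps15a region was the 1 lost in WT, against 5.06% of all regions, and 0 were lost in KO, against 4.07%. Between genotypes, 0 were called in KO only, untreated (1.6% of all) or with LPS (2.03%), and 0 in WT only with LPS (3.17%). No test was made of these counts of calls, and a region not called is not shown to be closed.

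Peak width could be compared over the 82 member regions called in all 8 libraries, and each test was fitted over all 36009 such regions of the genome. The width of a region in a library is the summed length of its peaks there. Median widths of the 82 were 769.5 and 799.5 bases in WT untreated, 746.5 and 746.5 in WT with LPS, 791 and 821 in KO untreated, and 673.5 and 719 in KO with LPS. Every LPS median lay below every untreated one, and the gap was wider in KO than in WT. Medians over all 9892 gene-end regions called in all libraries did not overlap either, at 704 and 691 (KO) to 755 bases with LPS and 763 to 803 untreated. Over all 36009 regions they were 517 to 543 bases with LPS and 570 to 590 untreated.

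**Figure D1:**
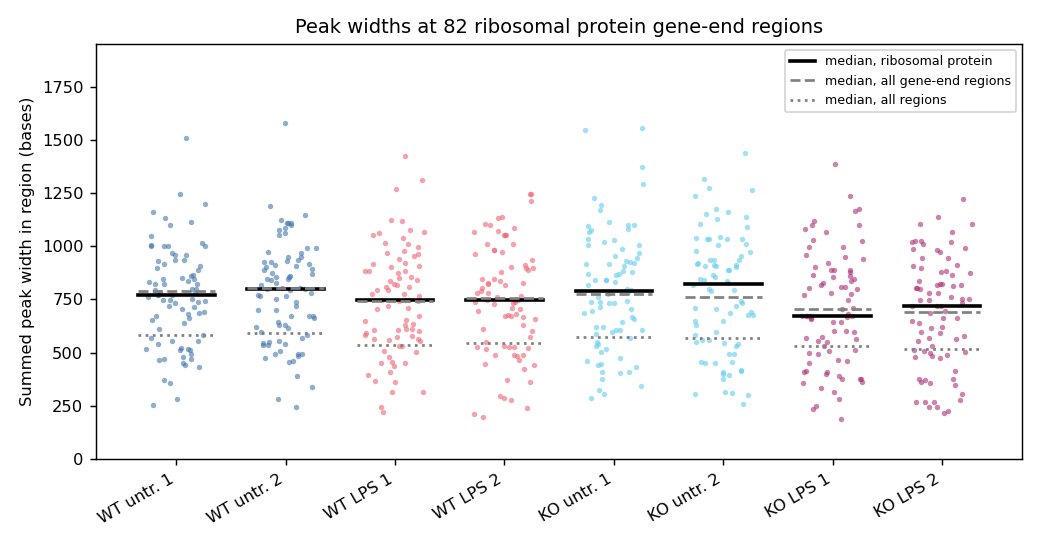
Summed peak width in bases (vertical axis) of the 82 member regions called in every library, 1 column of points per library. Black bars are the medians of the points, dashed bars the medians of all gene-end regions and dotted bars those of all regions; the 4 LPS medians (673.5 to 746.5 bases) lie below the 4 untreated medians (769.5 to 821).

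Averaged over both genotypes, the median log2 width difference of the 82 member regions, LPS minus untreated, was -0.13 (quartiles -0.24 and -0.03), and 67 of 82 (81.7%) were below 0. The median was -0.11 over all regions with 72.7% below 0, and -0.09 over the 9810 gene-end regions of other genes with 75.8% below 0. None of the 82 passed an adjusted p of 0.05 in limma (Benjamini-Hochberg over all regions), where 1.7% of all regions did, 1.25% narrower and 0.444% wider. Before adjustment 18 member regions had p under 0.05 (22.0%, 17 narrower and 1 wider), against 21.4% of all regions (17.6% narrower and 3.86% wider). The smallest adjusted p was 0.0617, at Rps23. All 4 LPS widths lay below all 4 untreated ones at 6 member regions (Rpl31, the 3′ region of Rpl4, Rpl3, Rpl12, Rps23 and Rps19), where 10.8% of all regions did so, and above them at 1 (Rpl14), where 2.6% did. The share of members with an unadjusted p under 0.05 was thus near that of all regions. When each library's widths were centred on that library's median, the median of all regions moved from -0.11 to 0.01. Relative to that, the members' median was -0.003, 42 of 82 were below 0, and other gene-end regions had 0.03. Within each genotype the LPS lists also held fewer peaks than the untreated ones, and the part of list length in the widths was not tested.

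**Figure D2:**
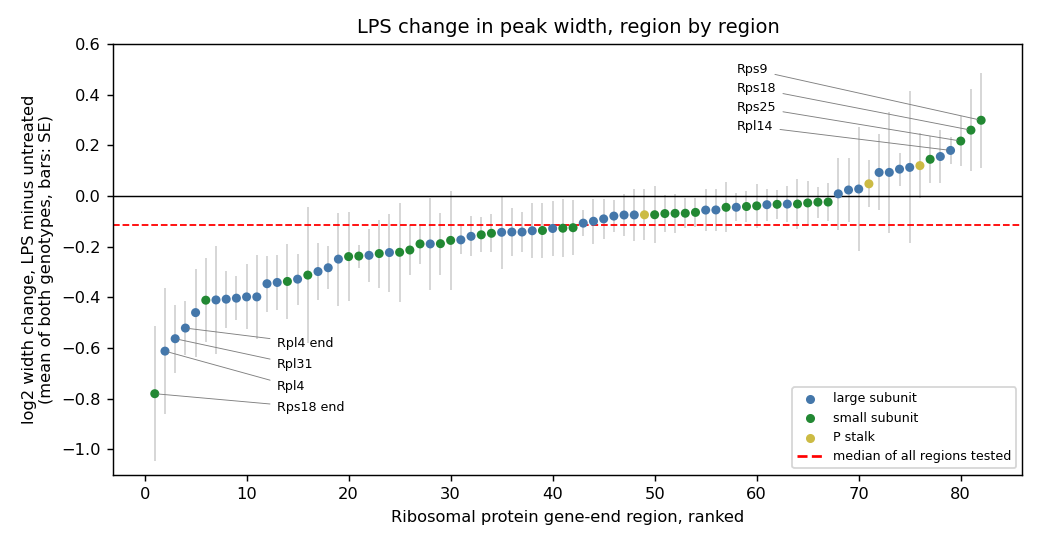
Log2 width difference, LPS minus untreated, averaged over both genotypes (vertical axis; bars are the limma SE), for the 82 member regions in rank order, coloured by ribosomal subunit. The points run from -0.78 at the 3′ region of Rps18 to 0.30 at the start of Rps9, 67 of them below 0, and the dashed line marks the median of all regions, -0.11.

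Narrow and wide member regions differed. When all 36009 regions were split by mean width at 452 and 679 bases into classes of near-equal size, 12 member regions fell in the narrow class, 17 in the middle and 53 (64.6%) in the wide class. The members' median log2 difference was -0.30 in the narrow class, -0.14 in the middle and -0.07 in the wide one. All regions of the same classes had medians of -0.16, -0.12 and -0.08. The 12 narrow member regions thus had the lowest class median, with 11 of them below 0, against 71.1% of all narrow regions. With so few no more than the values can be given. The lowest single values were not confined to that class. Rpl31, Rpl11 and both regions of Rpl4, among the 5 lowest, had mean widths of 691 to 852.5 bases, in the wide class.

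Among small-subunit genes, 30 of 34 regions (88.2%) had a log2 difference below 0, against 72.7% of all regions. The median was -0.10 (0.02, with 17 below 0, after centring), and 0 passed the adjusted threshold, where 1.7% of all regions did. At an unadjusted limma p under 0.05, 3 were narrower and 0 wider, where 17.6% and 3.86% of all regions were. Rps23, a protein of the decoding centre, had one of the widest and most even regions (chromosome 13, 90922393 to 90923831, over its start). Its widths were 1245 and 1190 bases in WT untreated, 1122 and 1073 in WT with LPS, 1292 and 1272 in KO untreated, and 1024 and 1025 in KO with LPS. Every LPS library was lower than every untreated one. The mean was 1250 ± 44.2 bases untreated and 1061 ± 46.7 with LPS (SD, n = 4 libraries each), and the log2 difference was -0.24 ± 0.05 (SE; limma adjusted p = 0.0617). It passed, with adjusted p = 0.0455, when only regions with a single peak in every library were tested.

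Rps18, often used as a reference gene, had a region at either end, and they stood at opposite extremes of the set. The 3′ region (chromosome 17, 33951154 to 33951775, 223 bases from the gene and also near B3galt4) measured 480 and 509 bases in WT untreated, 436 and 210 in WT with LPS, 434 and 561 in KO untreated, and 334 and 224 in KO with LPS. Within each genotype both LPS values were below both untreated ones. The difference was -0.78 ± 0.27 (adjusted p = 0.17), and -0.52 without the second WT LPS library. The start region (33955368 to 33956291, also near Vps52), which covers the promoter shown above, measured 542 and 738, then 923 and 680, then 706 and 531, then 683 and 719 bases in the same order. The groups overlapped, and the difference was 0.26 ± 0.16 (adjusted p = 0.391), and 0.15 without either the first WT untreated or the first WT LPS library and 0.16 without the second KO untreated one.

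Rps9 had the highest value of the 82, again with overlapping groups. Its start region on chromosome 7 (3703551 to 3704515) measured 465 and 701 bases in WT untreated, 836 and 632 in WT with LPS, 589 and 416 in KO untreated, and 564 and 614 in KO with LPS. The difference was 0.30 ± 0.19 (adjusted p = 0.397), and 0.15, 0.20 and 0.17 without the first WT untreated, the first WT LPS and the second KO untreated library. A second Rps9 region, over the 3′ end (3706719 to 3707469), lay on the other side of 0, at -0.14 ± 0.11 (limma adjusted p = 0.505). Rps25, which several viral internal ribosome entry sites require, measured 769 and 874, then 942 and 975, then 817 and 629, then 846 and 811 bases. Both WT LPS values were above both WT untreated ones, the KO values overlapped, and the difference was 0.22 ± 0.10 (adjusted p = 0.267; 0.12 without the second KO untreated library).

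Rps19, mutated in Diamond-Blackfan anaemia, had one of the steadiest start regions of the set (chromosome 7, 24883888 to 24884825). It measured 896 and 914 bases in WT untreated, 809 and 889 in WT with LPS, 909 and 910 in KO untreated, and 890 and 885 in KO with LPS. All LPS values were below all untreated ones, but the difference was small, -0.06 ± 0.06 (adjusted p = 0.539), and turned above 0 after centring. Its coefficient of variation over the 8 libraries was 3.79%, where the median member region had 12.8% and the median of all regions was 16.4%. Rps20 (3.75%) was as even, and was picked out after its values were seen.

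Rps6, the substrate of the S6 kinases, measured 999 and 886 bases in WT untreated, 1040 and 881 in WT with LPS, 1169 and 1137 in KO untreated, and 902 and 946 in KO with LPS. The WT groups overlapped and the KO groups did not, and the mean difference was -0.15 ± 0.08 (adjusted p = 0.312). Rps3, a protein at the mRNA entry channel that also binds NF-kB subunit p65, measured 848 and 717, then 557 and 848, then 843 and 649, then 507 and 750 bases. Its libraries overlapped in every pair of groups (difference -0.22 ± 0.20, adjusted p = 0.54). Rps27a, which is made as a fusion with ubiquitin, lay between 742 and 901 bases in all libraries (difference -0.04 ± 0.09, adjusted p = 0.824, above 0 after centring). Rpsa, a small-subunit protein also described as a laminin receptor, measured 1162 and 902 bases at its start in WT untreated, 1075 and 1132 in WT with LPS, 776 and 855 in KO untreated, and 951 and 899 in KO with LPS. Both of its KO LPS values were above both KO untreated ones, and over both genotypes the difference was 0.14 ± 0.09 (adjusted p = 0.403). A second region 854 bases past its 3′ end was among the narrowest, at 278 to 570 bases. There the difference was below 0, at -0.24 (limma adjusted p = 0.461).

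Large-subunit genes held 4 of the 5 lowest values. Of their 46 regions, 37 (80.4%) were below 0, against 72.7% of all regions. The median was -0.14 (-0.02, with 26 below 0, after centring), and 0 passed the adjusted threshold, where 1.7% of all regions did. At an unadjusted limma p under 0.05, 14 were narrower and 1 wider, where 17.6% and 3.86% of all regions were. Their widths also varied more between libraries, with a median coefficient of variation of 16.6% against 11.3% for the small subunit, and no test of the difference between subunits was made. Rpl31, near the exit of the peptide tunnel, was among them at its start (chromosome 1, 39367250 to 39368468). It measured 905 and 973 bases in WT untreated, 612 and 827 in WT with LPS, 1036 and 867 in KO untreated, and 645 and 508 in KO with LPS. No LPS library reached an untreated one. The mean was 945 ± 74.7 bases untreated and 648 ± 133 with LPS (SD, n = 4), a log2 difference of -0.56 ± 0.13 (adjusted p = 0.0914).

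Rpl4, whose extended loop lines the peptide exit tunnel, had low values at both ends. The start region (chromosome 9, 64172706 to 64173692, also near Zwilch) measured 918 and 861 bases in WT untreated, 636 and 980 in WT with LPS, 716 and 693 in KO untreated, and 237 and 487 in KO with LPS. The widest value of all was a WT LPS library, so the WT groups overlapped, while the KO groups did not. The difference was -0.61 ± 0.25 (adjusted p = 0.226), and -0.35 without the first KO LPS library. The 3′ region (64178813 to 64179950, 251 bases from the gene and also near Snapc5) measured 1116 and 969, then 824 and 845, then 868 and 1040, then 645 and 513 bases. Here LPS and untreated values did not overlap, and the difference was -0.52 ± 0.11 (adjusted p = 0.0691).

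Rpl5 and Rpl11 join a small ribosomal RNA in a particle that binds MDM2 when ribosome assembly is disturbed. Rpl11 measured 782 and 664 bases in WT untreated, 648 and 491 in WT with LPS, 1116 and 1149 in KO untreated, and 602 and 972 in KO with LPS. The KO untreated libraries stood highest, one KO LPS library exceeded both WT untreated ones, and within each genotype the LPS values were the lower ones. The difference was -0.46 ± 0.17 (adjusted p = 0.201), and -0.29 without the first KO LPS library. Rpl5 measured 824 and 947, then 841 and 896, then 1005 and 1174, then 938 and 879 bases, with overlap in WT and none in KO (difference -0.14 ± 0.08, adjusted p = 0.354).

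Rpl13a, part of the GAIT complex that represses inflammatory mRNAs in myeloid cells, measured 555 and 618 bases in WT untreated, 504 and 485 in WT with LPS, 882 and 826 in KO untreated, and 499 and 663 in KO with LPS. Within each genotype the LPS values were the lower ones, and the difference was -0.41 ± 0.11 (adjusted p = 0.119). Rpl3, close to the peptidyl transferase centre, measured 822 and 620, then 583 and 522, then 666 and 843, then 552 and 565 bases. Its LPS and untreated values did not overlap (difference -0.40 ± 0.13, adjusted p = 0.153). Rpl10, which is added late in the assembly of the large subunit, measured 1002 and 1085, then 1310 and 1012, then 1546 and 1263, then 1098 and 1023 bases. Only its KO groups were apart (difference -0.13 ± 0.11, adjusted p = 0.518).

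Rpl14 went the other way and was the 1 member region whose LPS values all exceeded the untreated ones. Its start region on chromosome 9 (120570837 to 120571966) measured 935 and 933 bases in WT untreated, 1063 and 1054 in WT with LPS, 917 and 936 in KO untreated, and 998 and 1103 in KO with LPS. The mean was 930 ± 8.9 bases untreated and 1055 ± 43.3 with LPS (SD, n = 4), and the log2 difference was 0.18 ± 0.05 (adjusted p = 0.139). Rpl24, which forms a bridge to the small subunit, measured 847 and 1063, then 1271 and 1098, then 1077 and 953, then 1081 and 943 bases. Both WT LPS values were above both WT untreated ones and the KO groups overlapped (difference 0.16 ± 0.10, adjusted p = 0.417; 0.07 without the first WT untreated library). The widest regions also included Rpl37a, at 1160 to 1578 bases, and Rpl30, at 1017 to 1438 bases. Rpl18 had one of the narrowest regions, at 218 to 399 bases. It lay inside the gene, 528 bases from the 5′ end of the gene's full extent. The RefSeq start of Rpl18 (45718071) lies in another region that is not a member.

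The P stalk recruits elongation factors, with Rplp0 as its base and Rplp1 and Rplp2 as its arms. Rplp0, another common reference gene, measured 750 and 702 bases in WT untreated, 747 and 703 in WT with LPS, 737 and 734 in KO untreated, and 888 and 698 in KO with LPS. The groups overlapped, one KO LPS library stood above the other 7, and the difference was 0.05 ± 0.09 (adjusted p = 0.796). Rplp1 lay between 621 and 882 bases (difference 0.12 ± 0.13, adjusted p = 0.611) with overlapping groups. Rplp2 lay between 620 and 797 bases, with overlap in WT and both KO LPS values below both KO untreated ones (difference -0.07, adjusted p = 0.703).

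**Figure D3:**
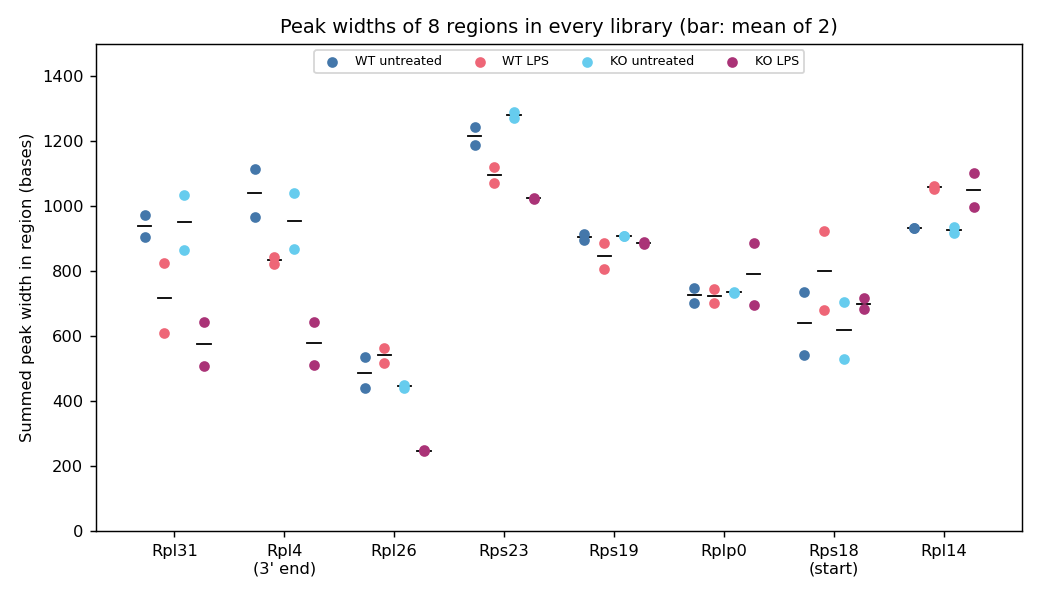
Summed peak width in bases (vertical axis) of 8 member regions in each of the 8 libraries, coloured by group, with a bar at the mean of the 2 libraries. The LPS points of Rpl31, the 3′ region of Rpl4, Rps23 and Rps19 lie below all their untreated points, those of Rpl14 above them, and only the KO LPS points of Rpl26 (250 and 246 bases) are apart from the rest.

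The width difference with LPS was also taken within each genotype. In WT the members' median was -0.06 with 53 of 82 below 0, against -0.10 and 66.5% of all regions and -0.06 and 65.3% of other gene-end regions. None passed the adjusted threshold in limma, where 0.0639% of all regions did, and 4 had an unadjusted p under 0.05 (4.88%, against 15.0% of all). In KO the median was -0.16 with 67 of 82 below 0, against -0.11 and 70.7% of all regions and -0.11 and 7359 of 9810 other gene-end regions. Again 0 passed, as in 0.0% of all regions, and 19 had an unadjusted p under 0.05 (23.2%, against 13.4% of all). In WT the members' median was thus close to that of other gene-end regions, and in KO it was below both. After centring, the members' medians were 0.06 in WT, with the sign turned, and -0.03 in KO. All regions then had 0.02 in WT and 0.015 in KO, and other gene-end regions 0.055 and 0.019, so the sign turned there too.

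The difference between these 2 differences (KO minus WT) had a median of -0.13 over the 82 member regions, with 58 below 0. All regions had -0.01 and 52.0% below 0, and other gene-end regions -0.04 and 57.6%. After centring the medians were -0.117, -0.002 and -0.032. Low values were not particular to the members. Translation factors with 5′ TOP mRNAs had -0.13 (14 of 18 regions below 0) and early LPS response genes -0.23 (14 of 20). Genes of the mitochondrial ribosome had 0.01 (36 of 74) and common reference genes 0.05 (4 of 11). These lists are described below. No member region passed the adjusted threshold in limma, where 0.0% of all regions did, and 8 had an unadjusted p under 0.05 (9.76%, against 6.47% of all). The effect of LPS on width at a member region was therefore not shown to differ between genotypes. Region by region, 46 were below 0 in both genotypes, 21 in KO only, 7 in WT only and 8 in neither. Pearson's r between the WT and KO values was 0.325 and Spearman's rho 0.306 over the 82 regions (0.383 by Pearson over all regions). The values share no library, but regions are not independent replicates.

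**Figure D4:**
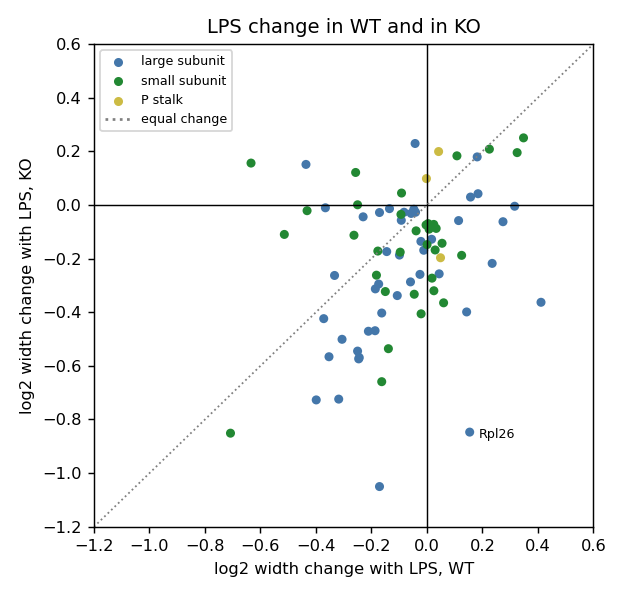
Log2 width difference with LPS in WT (horizontal axis) and in KO (vertical axis) for the 82 member regions, coloured by ribosomal subunit; the dotted line marks equal values. There are 46 points at the lower left, below 0 in both genotypes, and 21 below 0 in KO only, among them Rpl26.

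Without LPS, KO and WT differed at no member region past the adjusted threshold. The median log2 difference, KO minus WT, was 0.00 with 41 of 82 below 0. All regions had -0.02 and 55.0% below 0, and other gene-end regions -0.03 and 59.2%. After centring the members had 0.037 with 31 below 0, against 0.015 over all regions and 0.005 over other gene-end regions. Among the members 0 passed in limma, as in 0.0% of all regions. At an unadjusted p under 0.05 there were 13 (15.9%, 10 of them wider in KO), against 6.24% of all regions (2.23% wider in KO). With LPS the median was -0.06 with 54 of 82 below 0 (median -0.02 after centring), against -0.03 and 57.1% of all regions and -0.07 and 66.9% of other gene-end regions. Here 0 member regions passed, where 0.0333% of all regions did, and 11 had an unadjusted p under 0.05 (13.4%, against 10.4%). These comparisons share libraries with those on LPS.

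Rpl26, which binds the p53 mRNA, and Rpl19, which bridges the subunits, had the smallest unadjusted p for KO minus WT with LPS among the members; Rpl26 was picked out after its values were seen. The Rpl26 start region (chromosome 11, 68901246 to 68901824) measured 441 and 537 bases in WT untreated, 565 and 519 in WT with LPS, 441 and 451 in KO untreated, and 250 and 246 in KO with LPS. Both KO LPS libraries were far below the other 6. KO minus WT with LPS was -1.13 ± 0.16 (adjusted p = 0.113), the LPS difference was 0.15 in WT and -0.85 ± 0.16 in KO (adjusted p = 0.136), and the difference of the 2 was -1.0 ± 0.22 (adjusted p = 0.565; unadjusted p = 0.00346). At Rpl19 the member region lay inside the gene, 907 bases from the 5′ end of its full extent, and also near Cacnb1. It does not hold the RefSeq start of Rpl19 (98026710), which lies in another region that is not a member. The member region measured 282 and 246 bases in WT untreated and 222 and 197 in WT with LPS. In KO it measured 477 and 458 bases untreated and 409 and 371 with LPS. All 4 KO libraries were above all 4 WT ones, and KO minus WT untreated was 0.83 (unadjusted p = 0.00177), which did not pass after adjustment over all regions.

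The position of the peaks could be read at 55 members whose RefSeq start lay in a region called in all 8 libraries, Rps2 included. The outer peak edge lay a median of 439 bases upstream of the start in untreated libraries and 411 with LPS, and the inner edge 329 bases downstream untreated and 299.5 with LPS. The upstream side was shorter with LPS in 39 of 55 genes (70.9%; median difference -26.2 bases) and the downstream side in 42 (76.4%; -36 bases). At 7864 other genes the shares were 70.7% and 68.0%, with median differences of -16.4 and -17.8 bases. Both sides were thus shorter in most of the genes. By library, the members' median downstream edge was at 295 and 284 bases in WT untreated, 319 and 297 in WT with LPS, 358 and 312 in KO untreated, and 272 and 269 in KO with LPS, so that the LPS libraries were the lower ones in KO and the higher ones in WT. The largest downstream differences in either direction were at Rpl37a, 1090 bases untreated and 825 with LPS, and Rpl24, 750 and 949 bases.

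The members' peaks reached less far downstream than those of other genes. In untreated libraries the upstream side was the longer one in 34 of 55 members (61.8%), against 50.6% of other genes, whose median edges were 394 bases upstream and 395 downstream. Among the members, 26 with a run of at least 8 pyrimidines at the start had medians of 511.5 bases upstream and 277 downstream. The other 29 had 356.5 and 377 bases. The log2 width difference with LPS was alike in both, with medians of -0.14 (21 of 26 below 0) and -0.11 (23 of 29). These splits were not tested.

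**Figure D5:**
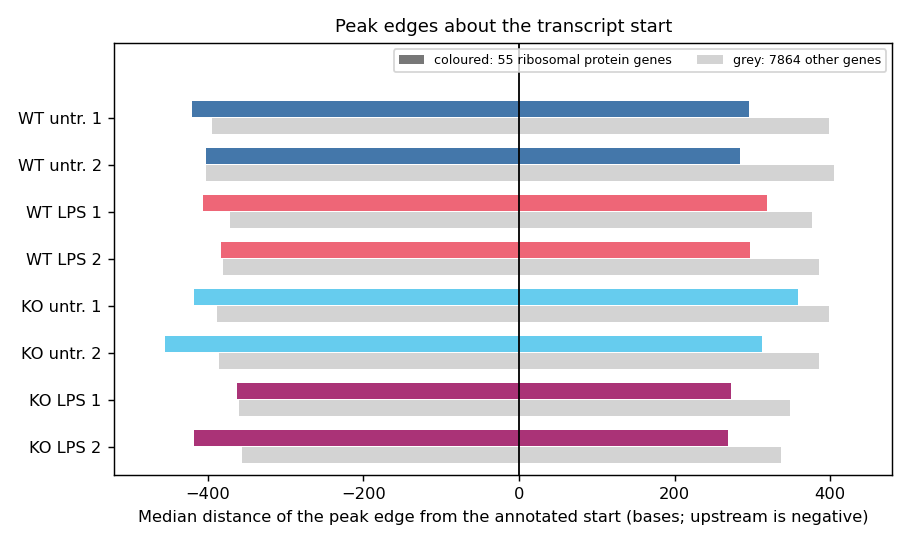
Median distance in bases of the outer and inner peak edge from the annotated transcript start (horizontal axis; upstream is negative) in each library, coloured for 55 ribosomal protein genes and grey for 7864 other genes. Members reach less far downstream (269 to 358 bases) than other genes (337 to 405) in every library, compared library by library.

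Related genes, listed by name, were set beside the members for the LPS difference. Medians after centring are in parentheses. Of all regions, 72.7% were below 0 and 1.7% passed the adjusted threshold. Genes of the mitochondrial ribosome, which are encoded in the nucleus, had 74 regions called in all libraries, with a median of -0.11 (0.02), 61 below 0 and 0 past the adjusted threshold. Translation factors with 5′ TOP mRNAs, such as Eef1a1 and Eef2, had 18 regions, with a median of -0.08 (0.05), 13 below 0 and 0 past it. Common reference genes such as Actb and Gapdh had 11, with a median of -0.09 (0.03), 9 below 0 and 0 past it. Of 20 regions of early LPS response genes, 6 were below 0 and the median was 0.08 (0.20). Without centring it was 0.18 in WT and 0.02 in KO, where 10 of 20 were below 0, and the difference from the members was not tested. The 1 that passed was near the chemokine gene Cxcl2. The Cxcl2 region (chromosome 5, 90903178 to 90904277) measured 595 and 612 bases in WT untreated, 1080 and 1100 in WT with LPS, 567 and 581 in KO untreated, and 931 and 784 in KO with LPS. It was wider with LPS in every library, by 0.71 ± 0.08 on the log2 scale (limma adjusted p = 0.0257).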

How the data were processed

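Per the labels' protocols, nuclei of cultured macrophages were treated with transposase. Per the submitters' processing notes, the tools were MACS2 2.1.1, Picard, Bowtie2 2.3.0 and bcl2fastq 2.17.1.14. Settings, the calling threshold and any shift of cut positions, which set peak edges and which weak peaks enter a list, were not given in the sources used here. The deposited unit is peak positions, 1 list per library on GRCm38 (mm10), with no score or count, so depth is unknown and no counting interval could be given.

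Peaks overlapping by at least 1 base were merged over the 8 lists, and a library called a region when a peak overlapped it by at least 1 base. Log2 summed widths of regions called in all 8 libraries were fitted in limma 3.58.1 (R 4.3.3; group means, variance trend, two-sided, Benjamini-Hochberg over all regions), after a test on simulated data. The study's design text calls the libraries biological replicates, but no source says which cultures or animals each came from. A p-value thus covers no more than the spread between these libraries, and how much of that is technical is unknown. Groups came from the source names.

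The members and lists were chosen with earlier results of these data known. Named regions were, by rule, the 5 lowest and 5 highest LPS differences, the 4 widest and 4 narrowest, members with no region or one missing from a library, and 14 fixed genes. Alternatives covered centring, single or widest peaks, 50% coverage, at least 6 libraries, the linear scale, no variance trend, the distance rule (0 or 2.5 kb, start end only), a replicate block and leaving out each library. Regions over a RefSeq start, and regions with no other gene's end near, were added after seeing the data. Some results on single genes and lists are not reported here.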

Additional observations from a re-analysis of the deposited data

How the results depend on the processing

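In the limma fits, 0 member regions passed the adjusted threshold under any setting except 1 (Rps23) when each region had to hold 1 peak in every library, where 77 were tested. Over all regions the same comparison called 611 in the fit described, 407 after centring (239 wider and 168 narrower, against 160 and 451 without it), 36 where peaks had to cover 50% of the region, 0 to 268 when a library was left out, and 0 with a replicate block.

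Centring each library on its median moved the median of all regions from -0.11 to 0.01. The members' median LPS difference became -0.003 over both genotypes, 0.06 in WT and -0.03 in KO, and KO minus WT with LPS became -0.018, so the sign in WT rests on the scaling. The sign of 2 of 28 named regions (Rps19 and Rps27a) turned. With the widest single peak Rpl37a turned to 0.06, and with a library left out Rps27a (to at most 0.01), Rpl18 (to -0.12 and -0.05) and Rplp0 (to -0.04) did; none of them was called. With 50% coverage the median over both genotypes was -0.077, against -0.079 over all regions in that setting. There 2 member regions were lost in WT and 4 in KO, and the share of all regions lost under that rule is not given here. Regions within 2.5 kb gave 1 gained and 3 lost in WT and 1 lost in KO. Of all consensus regions 3.96% were gained and 5.06% lost in WT, and 4.07% were lost in KO. Regions over a gene end, or over a RefSeq start, gave 0 lost in WT.

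When 1 library at a time was left out, the median ranged from -0.12 to -0.10 over both genotypes, from -0.09 to -0.04 in WT, from -0.20 (without the first KO LPS library) to -0.14 in KO, from -0.112 to -0.008 for KO minus WT with LPS (without the first and the second KO LPS library) and from -0.159 to -0.074 (without the second) for the difference between genotypes. KO minus WT untreated ranged from -0.01 to 0.02. Member regions called in every remaining library ranged from 82 to 85, lost in WT from 1 to 4, lost in KO from 0 to 3 and gained in KO from 0 to 2. The shares of all regions gained or lost in these settings are not given here, so the counts cannot be set against them. In the fits the lone library of a group was assumed to vary like the others.

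Title codes join 1 untreated and 1 LPS library of a genotype. Deviations of same-coded libraries correlated at 0.0537 in WT and 0.0544 in KO over 36009 regions, so the code was not taken as a pairing. The replicate block by code left the median at -0.13 over both genotypes, -0.06 in WT, -0.16 in KO and -0.13 for the difference, with 0 members called; it cannot be fitted for KO minus WT, which lies between codes.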
